A study of Mus musculus with 15 samples.

Results

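Slc37a2 and Arhgap25 are the genes assigned to the first and the third most strongly bound of the sites shared by the nuclear receptors RevErbalpha and RevErbbeta in mouse macrophages. They were taken by gene name from the authors' table of 1544 common peaks, in which Slc37a2 has 1 site and Arhgap25 has 1 site, so 2 of 1544 sites and 2 of 1220 assigned gene IDs are described. The genes were chosen by the strength of RevErb binding at their sites, and their nascent RNA values were also known at that time. All their values are therefore given as a description, and none is tested.

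Binding was measured by biotin ChIP-seq in the mouse macrophage line RAW (labelled genetic background C57Bl6), whose cells expressed biotinylated RevErbalpha or RevErbbeta (BLRP-RevErbalpha and BLRP-RevErbbeta). The control library, BirA, came from control RAW macrophages, and all 3 were pulled down with streptavidin beads. Its column is named BirA-input and could also stand for an input library. 5'GRO-seq, a run-on assay that captures the capped starts of RNA still being made, was used in control RAW macrophages (BTEV-Ctrl) and in those with biotinylated RevErbalpha. Nascent RNA was also measured by GRO-seq in bone marrow derived macrophages of the C57Bl6 background. Both genotypes carried RevErbalpha flox/flox and RevErbbeta flox/flox, and the double knockout (DKO) also carried Tie2-Cre, whose promoter is active in endothelial and blood-forming cells, while the floxed controls are called WT. Age and treatment of these groups are not given in the sources used here. Each group is 1 sample, with 3 ChIP-seq runs per RevErb and 2 gene-level GRO-seq runs per genotype. The runs were counted as repeat runs of 1 sample, since nothing says whether they are separate cultures or animals or whether any was treated. Differences between conditions therefore have no replicate check.

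RevErbs are repressors of the circadian clock. They bind DNA at the nuclear receptor core site with an A and T rich flank, or as a pair on a direct repeat, and recruit the corepressor NCoR with a histone deacetylase. At an enhancer, a repressor of this kind can lower the short capped RNAs made there as well as the transcription of a gene nearby. Slc37a2 encodes a transporter of the endoplasmic reticulum membrane that exchanges sugar phosphate for phosphate and is abundant in macrophages and osteoclasts. Arhgap25 encodes a GTPase-activating protein of blood cells that switches off Rac, a small GTPase that drives actin remodelling in phagocytosis and migration.

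The Slc37a2 site lay on chromosome 9 from 37043675 to 37043831 (mm9), 19570 bp downstream of the start of the gene (NM_020258). The Arhgap25 site lay on chromosome 6 from 87449944 to 87450100 (mm9), 3728 bp upstream of the start used for NM_175476. That start need not be the outermost of the gene, so the site may still lie inside it. Both were in the authors' class of enhancers that are not intergenic, with high H3K4me1 and low H3K4me3. Whether the sites are exonic or intronic is not stated in the table, and the sequence of the sites was not used here. Each site stood alone: no other common peak lay within 250 kb of either, which held for 612 of the 1544 peaks (39.6%). The nearest common peak to the Slc37a2 site was 1549 kb away and assigned to Hyls1, and the nearest to the Arhgap25 site was 721 kb away and assigned to Anxa4. None of the 4 protein-coding genes nearest in order to Slc37a2 (Pknox2, Tmem218, Ccdc15 and Hepacam) or to Arhgap25 (Gkn3, Bmp10, Prokr1 and Aplf) in the RefSeq table had a common peak assigned.

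The gene starts are shown because the GRO-seq values below include those of the genes, each for 1 RefSeq ID. RefSeq (build GRCm38.p6) lists 1 start for Slc37a2 and 2 for Arhgap25, 36932 bp apart. Which of the Arhgap25 starts the authors' distance and gene values refer to is not stated. A site 3728 bp upstream of the first start would lie between the starts, inside a transcript from the second. Upstream of the second start it would lie outside both transcripts. The authors' class for the site, which is not intergenic, goes with the first start. The 250 bases before each start are given 5' to 3' on the minus strand, on which both genes lie, with capitals for the AP-1 motif TGANTCA at Slc37a2 and for the PU.1 motif GAGGAAGT, read on the opposite strand, at Arhgap25.
Slc37a2, chr9:37255739-37255988: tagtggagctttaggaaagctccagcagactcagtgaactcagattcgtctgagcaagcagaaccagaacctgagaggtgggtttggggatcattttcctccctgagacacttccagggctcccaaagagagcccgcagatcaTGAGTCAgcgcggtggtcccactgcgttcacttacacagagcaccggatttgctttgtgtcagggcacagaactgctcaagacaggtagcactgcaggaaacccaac
Arhgap25 first start, chr6:87496328-87496577: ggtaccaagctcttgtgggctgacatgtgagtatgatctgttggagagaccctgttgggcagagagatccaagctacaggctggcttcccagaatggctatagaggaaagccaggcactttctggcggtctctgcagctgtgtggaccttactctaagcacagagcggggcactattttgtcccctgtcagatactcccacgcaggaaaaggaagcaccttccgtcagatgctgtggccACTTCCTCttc
Arhgap25 second start, chr6:87533260-87533509: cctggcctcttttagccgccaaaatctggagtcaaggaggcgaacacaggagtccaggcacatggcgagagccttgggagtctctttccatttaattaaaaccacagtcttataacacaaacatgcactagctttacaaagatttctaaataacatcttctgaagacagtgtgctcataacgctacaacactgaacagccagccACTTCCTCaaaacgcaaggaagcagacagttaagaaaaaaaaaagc
Both Arhgap25 windows held the PU.1 motif, a site of the lineage factor of macrophages, with 3 and 38 bases between the match and the start. Of 32536 windows of this length in the RefSeq table, 2.45% held it on either strand. The AP-1 motif of the Slc37a2 window ended 100 bases before the start, and 6.73% of all windows held that motif. None of the 3 windows held the nuclear receptor core AGGTCA on either strand, which 14% of all windows held. The RevErb monomer element and the RevDR2 repeat contain that core and were likewise not in these windows, against 0.178% and 0.00922% of all windows. The common peaks of the genes lie outside these windows.

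Both proteins bound both sites far above the BirA library in each run. ChIP-seq signal is given as log2 tags per 10000000 in 157 bp. At the Slc37a2 site the RevErbalpha runs read 7.65, 9.69 and 9.78, and the RevErbbeta runs read 10.53, 9.51 and 9.91. BirA read 0.44 there, and the lowest RevErb run was 7.21 above it. The Slc37a2 site topped all 1544 peaks in runs 2 and 3 of RevErbalpha and run 1 of RevErbbeta, and it ranked 4 and 3 in RevErbbeta runs 2 and 3. Only RevErbalpha run 1, the deepest of that protein, placed it lower, at rank 16.

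At the Arhgap25 site the RevErbalpha runs read 7.34, 9.11 and 9.52, and the RevErbbeta runs read 10.42, 8.53 and 10.07. BirA read 1.48, which is 5.86 below the lowest RevErb run. The site ranked 33, 8 and 3 in the RevErbalpha runs and 2, 44 and 2 in the RevErbbeta runs. Slc37a2 was therefore above Arhgap25 in 5 of 6 RevErb runs, by 0.11 to 0.98, and below it by 0.16 in RevErbbeta run 3. Both sites were above the 90th percentile of all common peaks in 6 of 6 runs. The mean over both proteins was 9.51 at Slc37a2 and 9.165 at Arhgap25, against a median of 5.54 over all peaks, with the Sap25 site (9.29) between them and the Mmp9 site (9.11) next below. With the deeper runs only (above 1000000 tags, RevErbalpha run 1 and RevErbbeta runs 1 and 2), the Slc37a2 site ranked 2 and the Arhgap25 site 11. The Slc37a2 site held some 105, 56.3 and 52.6 tags in runs of RevErbalpha and 553, 355 and 75 in runs of RevErbbeta. The Arhgap25 site held some 84.7, 37.6 and 43.9 and 513, 179.8 and 83.8. BirA held about 0.38 and 1.9 tags at the sites, so its values there are at the limit of counting.

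**Figure D1:**
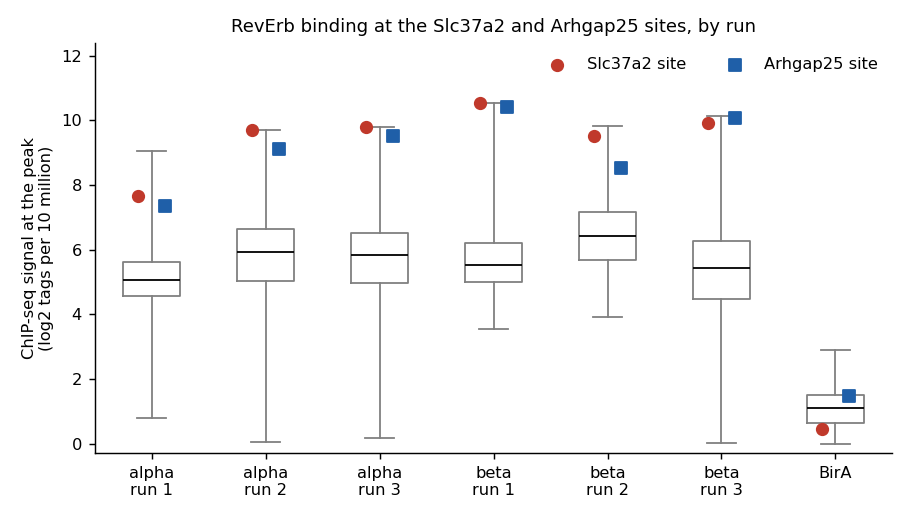
RevErb ChIP-seq signal (log2 tags per 10000000, y axis) at the Slc37a2 site (circles) and the Arhgap25 site (squares) in each RevErbalpha and RevErbbeta run and in BirA (x axis). Boxes show the quartiles and whiskers the lowest and highest of all 1544 common peaks; both sites lie near the top of each RevErb run, while BirA read 0.44 and 1.48.

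RevErbbeta signal was higher than RevErbalpha signal at both sites, by an amount that depended on the runs. At Slc37a2 the mean was 9.04 ± 1.20 for RevErbalpha and 9.98 ± 0.51 for RevErbbeta (SD over 3 runs of 1 sample), a difference of 0.94. At Arhgap25 the means were 8.66 ± 1.16 and 9.67 ± 1.01, a difference of 1.02. The runs of the proteins overlapped at both sites. Over all common peaks the median difference was 0.285, and RevErbbeta was higher at 1020 of 1544. A difference of at least 0.94 was found at 18.5% of them, and the Slc37a2 and Arhgap25 sites ranked 284 and 241. Without RevErbalpha run 1 the differences were 0.25 and 0.36, and with the deeper runs only they were 2.37 and 2.14. The deeper runs include RevErbalpha run 1 alone for that protein, its lowest run at both sites.

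Capped nascent RNA at both sites was lower in RAW cells with biotinylated RevErbalpha than in control cells, more so at Arhgap25. In log2 tags per 10000000 in 500 bp, the Slc37a2 site read 5.90 in control cells and 4.72 with biotinylated RevErbalpha, a difference of -1.18. This corresponds to about 111 and 18.4 tags, where 42.9 would match the control level, and to 43.2% of the control signal (exact Clopper-Pearson 95% interval 22.3 to 70.0%). The Arhgap25 site read 5.35 and 2.63, a difference of -2.72. This corresponds to about 75.1 and 3.8 tags, where 29 would match, and to 13% of the control signal (95% interval 2.1 to 37.3%). The intervals overlap each other. They describe values that were known when the genes were chosen, so they are no test against the control level. They cover counting error in 1 library each, widened by 1 tag because the deposited values are not on whole tags.

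Of all 1544 common peaks, 20.0% were lower by 1 or more on the log2 scale, as both of these sites were, and the median difference was -0.23. Counted from the most negative difference, the Arhgap25 site ranked 43 and the Slc37a2 site 265. Of the other 8 among the 10 most strongly bound sites, 6 were also lower by 1 or more (Mmp9, Pqlc1, Dnttip2, Senp6, Hmga1 and Hnrnpl), Sap25 had 0.68 and Zfp236 had 2.70. Some of these rest on few tags. Zfp236 had about 0 in control and 3 to 4 with biotinylated RevErbalpha, and Sap25 had about 7 to 8 and 5 to 6. Senp6 and Hnrnpl had about 0 with biotinylated RevErbalpha, against 26 to 27 and 84 to 85 in control. When 10 rather than 1 was added to the values before the logarithm, the sites had differences of -0.96 and -1.71, and the Slc37a2 site then fell short of 1. Control signal at the members was ordinary for a common peak, with 5.90 and 5.35 against a median of 6.065. In these bulk samples, fewer cells with a signal and less signal per cell cannot be told apart.

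**Figure D2:**
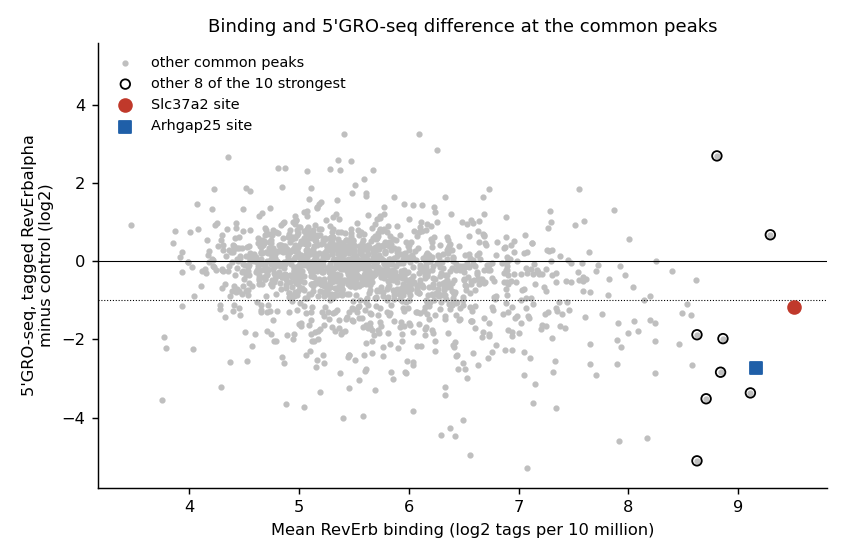
Mean RevErb binding (x axis, log2 tags per 10000000) and the 5'GRO-seq difference between biotinylated RevErbalpha and control RAW cells (y axis, log2) at the 1544 common peaks. The Slc37a2 site (circle) has a difference of -1.18 and the Arhgap25 site (square) -2.72; open circles are the other 8 of the 10 strongest sites, and the dotted line marks -1.

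GRO-seq signal at the sites was somewhat higher in DKO than in WT macrophages. The Slc37a2 site read 5.755 in WT and 6.14 in DKO, a log2 difference of 0.385, and the Arhgap25 site read 4.765 and 5.355, a difference of 0.59. Neither reached 1, the difference used to call a peak, which 3.37% of all common peaks did in this direction. The median over all peaks was 0.03, and the sites ranked 298 and 153 from the highest. In WT the sites had more signal than any of the other 8 strongest sites, which read 0.195 to 3.92. The other 8 are not alike in kind, since those of Mmp9, Dnttip2 and Hmga1 are intergenic. Their genes also had less GRO-seq signal, 7.49 to 11.18 against 11.875 for Slc37a2 and 12.39 for Arhgap25. The table gives 1 column per genotype at peaks, so these differences have no spread between runs, and signal made at the site and signal of a transcript that passes through it cannot be told apart in them.

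At the level of the genes, signal was higher in both DKO runs than in both WT runs for Slc37a2 and for Arhgap25. Gene values are log2 GRO-seq signal with no scaling by length stated. They are used only to say how much signal lies behind a difference, not which gene is more highly expressed. The WT runs of Slc37a2 read 11.73 and 11.58, and its DKO runs 11.98 and 12.21. Its means were 11.655 ± 0.11 and 12.095 ± 0.16 (SD over 2 runs of 1 sample), a log2 difference of 0.44 or 1.36-fold. The lowest DKO run was 0.25 above the highest WT run, and the runs of a genotype lay 0.15 and 0.23 apart. The difference was under the 0.5 used to call a gene, and passed it without WT run 1 (0.515) or DKO run 1 (0.555).

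The WT runs of Arhgap25 read 12.35 and 11.77, and its DKO runs 12.71 and 12.74. Its means were 12.06 ± 0.41 and 12.725 ± 0.02, a log2 difference of 0.665 or 1.59-fold. The DKO runs were 0.03 apart and the WT runs 0.58 apart, nearly as far as the genotypes. Of 305 genes with the most signal, only 6 had WT runs at least this far apart, Arhgap25 among them. Without WT run 2 the Arhgap25 difference was 0.375, under 0.5, and without WT run 1 it was 0.955.

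**Figure D3:**
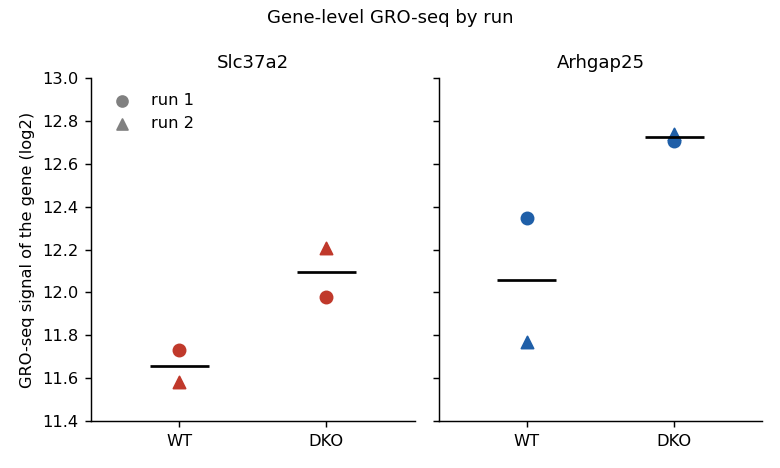
GRO-seq signal of Slc37a2 and Arhgap25 (y axis, log2, axis not starting at 0) in WT and DKO bone marrow derived macrophages, with run 1 as circles, run 2 as triangles and the mean as a line. Both DKO runs lie above both WT runs for each gene, and the WT runs of Arhgap25 are 0.58 apart.

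Of 1220 assigned gene IDs, 18.4% had WT and DKO runs that did not overlap with DKO the higher, as both genes did. A difference of 0.5 or more in addition was found for 1.97%, or 24 genes, which include Arhgap25 but not Slc37a2. By size the difference ranked 17 for Arhgap25 and 42 for Slc37a2, and the median over all genes was 0.035. With 1 run left out, the ranks were 14 to 86 for Arhgap25 and 52 to 91 for Slc37a2. In summed signal over the gene, which grows with its length, the median of the 24 was 6.09, and Arhgap25 had 12.39. Among the 305 genes in the upper quartile of this signal, a limit chosen after the values were seen, Arhgap25 had the largest difference and Slc37a2 the next largest. Plin2 (0.435), Plxna1 (0.355) and Anxa5 (0.32) followed closely, so the order of Slc37a2 and Plin2 is within the spread between runs. The SD of the difference over these 305 genes was 0.12. With any 1 run left out, Arhgap25 still had the largest difference of the 305 and Slc37a2 ranked 2 to 5. Among the 610 genes above the median level they ranked 3 and 7.

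**Figure D4:**
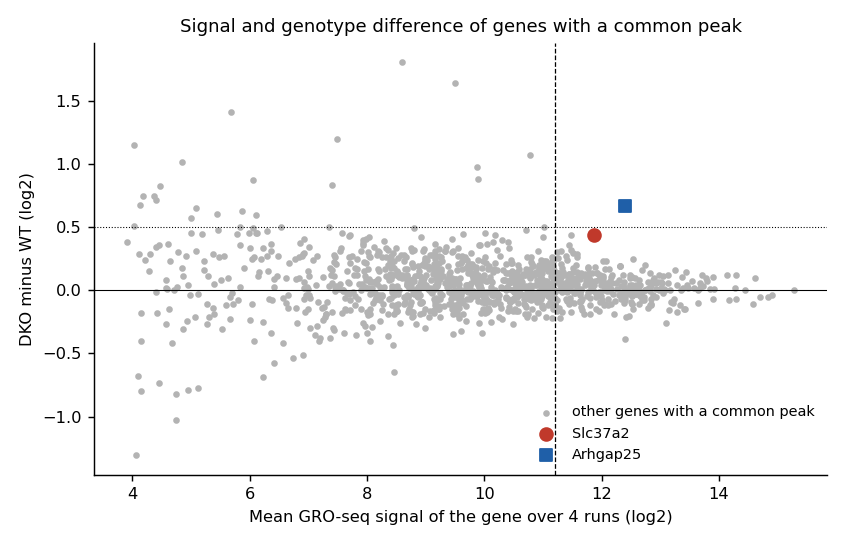
Mean GRO-seq signal over 4 runs (x axis, log2) and DKO minus WT (y axis, log2) for the 1220 gene IDs with a common peak, with Slc37a2 as a circle and Arhgap25 as a square. Right of the dashed line, the upper quartile of level, Arhgap25 at 0.665 and Slc37a2 at 0.44 are the highest points; the dotted line marks 0.5.

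Lower 5'GRO-seq signal with biotinylated RevErbalpha and higher gene signal in DKO were thus both recorded for these genes, in different cells and libraries. A site lower by 1 or more was found for 278 of 1220 gene IDs (22.8%). Of these, 10 were also among the 24 called higher in DKO. That is 3.6% of the 278, against 1.97% of all gene IDs, and 41.7% of the 24, against 22.8%. The lowest site of each gene was used, so a gene with more sites passes more easily. Arhgap25 was 1 of the 10, with Arntl, Cx3cr1, E230029C05Rik, Mmp9, Nr1d1, Pdcd1lg2, Ptges, Slc15a3 and Slc7a8. With runs that do not overlap as the only condition, 67 gene IDs had both, Slc37a2 among them. That is 24.1% of the 278, against 18.4% of all gene IDs, and 29.9% of the 224, against 22.8%. For comparison, the other 8 genes of the 10 strongest sites had differences of -0.10 to 1.20, and among them the DKO runs of Mmp9 and Pqlc1 lay above all their WT runs.

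The sites resembled one another over 11 columns at peaks (6 RevErb runs, BirA, 2 5'GRO-seq and 2 GRO-seq columns). By Euclidean distance of the log2 values, the nearest of all peaks to the Slc37a2 site was the Arhgap25 site (2.97), followed by a Cmtm6 site (3.85) and a Prkcd site (3.90). The nearest to the Arhgap25 site was a site of Anxa5 (2.43), then Slc37a2 and Hnrnpl (3.22). The Anxa5 site read 5.19 in control and 2.54 with biotinylated RevErbalpha in 5'GRO-seq, and 4.305 in WT and 4.98 in DKO GRO-seq. Strong binding, which chose the genes, makes up most of these columns. Over the 4 gene-level runs the nearest genes were Ptk2b, Syk and Dnm2 for Slc37a2 and Ctsd, Arhgap22 and Asph for Arhgap25, with DKO minus WT differences of 0.125 to 0.245.

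Of 36 genes of sugar phosphate handling and glycolysis listed, 5 had a common peak: Slc37a2, Pfkp and Hk2 (a phosphofructokinase and a hexokinase of glycolysis), H6pd, which oxidises sugar phosphate in the endoplasmic reticulum, and Slc2a6, a hexose transporter. None was called higher or lower in DKO, as 1.97% and 0.738% of all gene IDs were. Slc37a2 was the 1 of the 5 with DKO runs above the WT runs, close to the 18.4% of all gene IDs, so the count shows nothing about the list. The differences were 0.195 for Pfkp, 0.00 for Hk2, 0.09 for H6pd and 0.225 for Slc2a6. The list's median was 0.195 against 0.035 for all genes. Of the 5 sites, that of Slc37a2 was lower by 1 or more in 5'GRO-seq, which is also the share over all common peaks (20.0%), and the Pfkp site had -0.65.

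Depth ranged from 598490 to 5276592 tags for the RevErb runs, and was 10548880 for BirA and 18708148 and 7238710 for the control and biotinylated RevErbalpha 5'GRO-seq libraries. Of 17 macrophage markers listed, 9 had a common peak and so a gene value in the table, at levels of 9.19 to 12.57. The WT runs of Csf1r, the M-CSF receptor, read 12.71 and 12.33, and its DKO runs 12.52 and 12.71. The table held Vwf and Flt1 of 6 endothelial markers, with differences of 0.20 and 0.04, and the DKO runs of Vwf lay wholly above its WT runs. No listed marker of B and T cells, neutrophils or fibroblasts had a value here. The part of cell makeup in the differences of Slc37a2 and Arhgap25 was not tested.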

How the data were processed

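The members and gene lists were chosen with earlier results of these data known. The authors deposited log2 values at each common peak and assigned gene. Per the file headers, ChIP-seq and 5'GRO-seq tags were scaled to 10000000 per library before the log2 step. GRO-seq columns give no further scaling. Bowtie 0.12.7, HOMER and build mm9 are named in the submitters' processing notes, and peak calling settings are not given in the sources used here. Names in the table's header include treated libraries.

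Runs were averaged on the log2 scale with pandas 2.3.3. Tags were approximated as 2 to the power of the value, minus 1, divided by the deposited scaling factor. Below 5 tags they were not on whole numbers in the 5 libraries checked (3 RevErb runs and both 5'GRO-seq libraries): each 0.2 of a tag held 12.6 to 26.7% of the peaks. A part below 1 tag was therefore allowed for. For the intervals, tags were rounded to whole counts, 1 tag fewer was also taken, and the wider limits were kept. Shares of control have Clopper-Pearson intervals from SciPy 1.17.1. A peak was called at a log2 difference of 1, a gene at 0.5 with runs that did not overlap. Each group has 1 sample, so no test between groups was run. Named genes were the members, the 10 strongest sites, the 3 nearest by Euclidean distance, and called or highest members of lists. Of 1220 gene IDs, 1208 matched the RefSeq table (GRCm38.p6), used for names, order and start sequences. Alternatives were other run sets, 10 added before the logarithm in place of 1, centring and other limits. A second list of genes and 1 marker are not reported here.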

Additional observations from a re-analysis of the deposited data

How the results depend on the processing

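No value of Slc37a2 or Arhgap25 changed sign under the alternatives run. With 1 RevErb run left out, mean binding was 9.33 to 9.86 at the Slc37a2 site and 8.95 to 9.49 at the Arhgap25 site, and RevErbbeta minus RevErbalpha was 0.25 to 1.31 and 0.36 to 1.59. With the deeper runs only, which leave RevErbalpha run 1 alone for that protein, that difference was 2.37 and 2.135. Minus BirA, Arhgap25 binding was 7.685 (rank 9). With 10 added before the logarithm, the 5'GRO-seq differences were -0.96 and -1.71, so Slc37a2 fell short of the call, as it did centred on the median peak (-0.95). DKO minus WT at the sites was 0.34 and 0.46 with 10 added, and 0.355 and 0.56 centred. With 1 GRO-seq run left out, the gene difference was 0.325 to 0.555 for Slc37a2, which passes 0.5 without WT run 1 (0.515) or DKO run 1, and 0.375 to 0.955 for Arhgap25. With each run centred on its median over genes, the differences fell to 0.38 for Slc37a2 and 0.61 for Arhgap25. Among genes above the median level the ranks were 7 and 3. Pairing runs of the same number (a replicate block) gave 0.25 and 0.63 for Slc37a2 and 0.36 and 0.97 for Arhgap25, with unchanged means, and 310 genes higher in both pairs. The labels do not say that run numbers mark shared material.

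Peaks lower in 5'GRO-seq numbered 181 with 10 added and 561 at a limit of 0.5. Peaks higher in DKO numbered 3 with 10 added and 208 at a limit of 0.5. Genes called higher in DKO numbered 20 with each run centred on its median, against 24 without. They numbered 7 above the lower quartile of level and 33 to 67 with 1 run left out, where fewer runs must not overlap. Of 75 alternative values, 58 stayed within the spread set for them. The Arhgap25 site in 5'GRO-seq rests on about 3.8 tags with biotinylated RevErbalpha, and GRO-seq columns allow no counting error.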
